A study of Mus musculus with 2 samples.

Results

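Mir143 and Mir145a are mouse genes of miRNAs that mark smooth muscle, and Mir145b is a relative of Mir145a grouped with them here. All 3 were followed in the intestine of newborn mice. They were found by their annotated gene identifiers, with no use of their counts, and are 3 of the 1973 miRNA genes measured. The intestines came from 2 pups of strain B6NCrl at postnatal day 0, from 1 pregnant female, each sequenced as 1 small RNA library with a labelled size range below 30. Neither a gut segment nor a treatment was labelled, and sex was not collected. There is 1 group and no control group, so the levels describe the newborn gut, and a difference between pups is a difference between 2 libraries.

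A miRNA gene is transcribed as part of a longer RNA, cut out as a hairpin and trimmed to a short guide that lowers the output of the messenger RNAs it pairs with. Mir143 and Mir145a lie side by side and are thought to be made from 1 transcript, whose activity in smooth muscle depends on serum response factor and its partner myocardin. Their miRNAs are known to hold smooth muscle cells in the contractile state, in part through Klf4. In the gut they belong to smooth muscle and other cells of the mesenchyme, while the epithelium holds little of them. Mir145b is a separately annotated relative of Mir145a.

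Other miRNAs act on the same cells. Mir21a and the pair Mir221 and Mir222 are known for promoting growth of smooth muscle cells, and the miR-29 family lowers collagen and other matrix genes. Their mature sequences, from RefSeq on GRCm38.p6, are printed because the levels of Mir143 and Mir145a are set beside them below, and capitals mark the seed, bases 2 to 8, which selects the targets. Mir221, Mir222, Mir29a and Mir29c were picked for this after their values had been seen.
miR-21a-5p, chr11:86584120-86584141, minus strand: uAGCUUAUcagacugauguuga
miR-221-3p, chrX:19146307-19146329, minus strand: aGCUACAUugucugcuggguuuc
miR-222-3p, chrX:19146901-19146923, minus strand: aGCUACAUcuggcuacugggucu
miR-29a-3p, chr6:31062673-31062694, minus strand: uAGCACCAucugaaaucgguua
miR-29c-3p, chr1:195037600-195037621, plus strand: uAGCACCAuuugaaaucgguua
Mir221 and Mir222 share 1 seed, and Mir29a and Mir29c share another. The counts are per hairpin gene and do not separate its arms, so a value below belongs to the gene and not to the arm printed.

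Sequencing gave 6375694 reads for pup 1 and 8373497 for pup 2. Of them, 3567658 and 4683939 fell in miRNA genes in the annotated orientation. Levels are given as CPM, counts per 1000000 of those counts, with the SD over the 2 pups. Counts were not calibrated against known amounts, so ranks and folds between different miRNAs compare counts and not molecules. Reads that mapped to several places, 30.3% and 29.8% of the reads, went uncounted.

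Mir143 stood at the top of the newborn gut's counted miRNAs, Mir145a in the upper ranks and Mir145b at the edge of detection. The Mir143 count was 629713 in the first pup and 682452 in the second, or 176506 and 145700 CPM (mean 161103 ± 21783, SD, n = 2). Its exact Clopper-Pearson 95% intervals, 176111 to 176902 and 145381 to 146020 CPM, do not overlap. These intervals cover counting error alone: without molecular identifiers, reads may be copies of 1 molecule. Mir143 thus had the most counts of any gene in pup 1 and the second most in pup 2. It took 17.7% and 14.6% of the counts in miRNA genes, and 9.88% and 8.15% of all reads.

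Mir145a had 16232 counts in pup 1 and 20745 in pup 2. These are 4550 and 4429 CPM (mean 4489 ± 85.4, SD, n = 2), and its rank was 32 in pup 1 and 35 in pup 2. Its pups were closer to each other than those of Mir143, and their 95% intervals, 4480 to 4620 and 4369 to 4490 CPM, overlap. Mir145a made up 2.51% of the summed counts of Mir143 and Mir145a in pup 1 and 2.95% in pup 2.

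Mir145b had 2 counts in each pup, or 0.561 and 0.427 CPM. Both lie below the level of 3 counts that a count of 0 would allow, 0.841 CPM in pup 1 and 0.640 in pup 2, so whether the gene was active was not detectable at this depth. The ratio of Mir145a to Mir145b was 8116 in pup 1 (95% counting interval 2246 to 67022) and 10372.5 in pup 2 (2871 to 85655). Together the 3 genes held 16.6% ± 2.19 of counts (SD, n = 2), and Mir143 alone made 97.5% of that sum in pup 1 and 97.0% in pup 2.

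**Figure D1:**
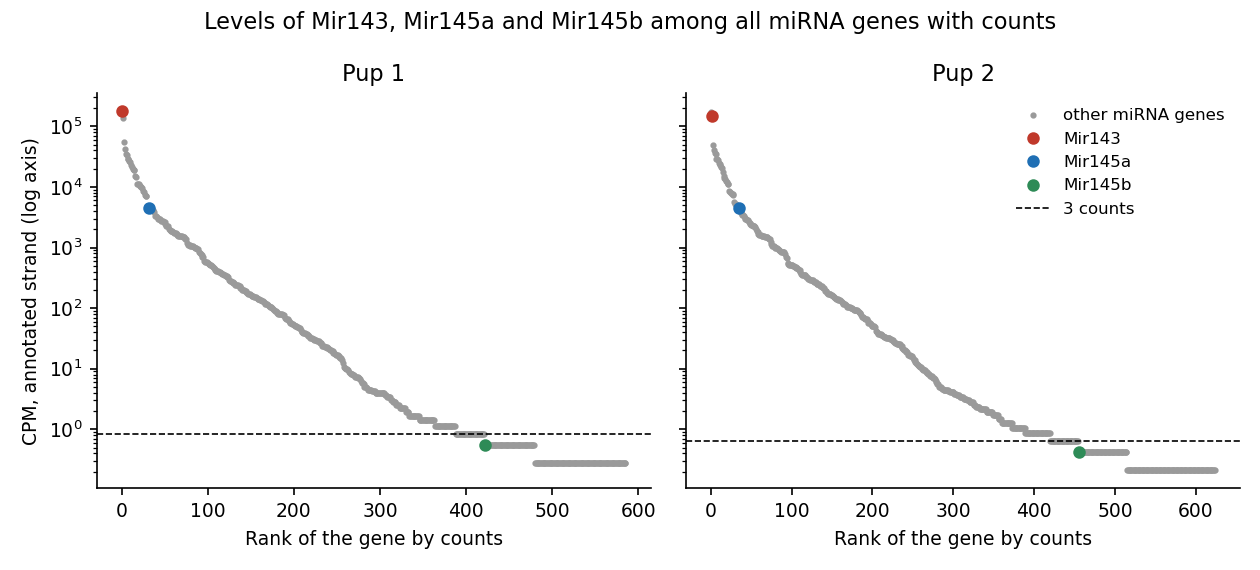
CPM on a log axis against the rank of each miRNA gene with at least 1 count, by pup, with the 3 genes in colour and a dashed line at 3 counts. Mir143 is at rank 1 in pup 1 and 2 in pup 2, Mir145a at 32 and 35, and Mir145b under the dashed line in both pups.

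The genes nearest to Mir143 in level were markers of other cell types. Mir215, a miRNA of gut epithelium, had 138090 CPM in pup 1 and 170988 in pup 2, and Mir126a of endothelium had 54634 and 49791. Mir143 was 1.28-fold above Mir215 in pup 1 and lay at 0.852 of it in pup 2, so the order of these 2 genes differed between pups and their means differ by less than the spread of either. Mir143 exceeded Mir126a in both, 3.23-fold in pup 1 and 2.93-fold in pup 2.

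Around Mir145a the levels were dense, and its place among them was not fixed. Directly above it by mean were Mir141 of epithelium, with 4643 CPM in pup 1 and 5332 in pup 2, and Mir98 of the let-7 family, with 4932 and 4645. Directly below were Mir20a of the miR-17-92 cluster, with 4123 and 4770, and Mir30d, with 4138 and 4737. Both values of Mir145a fall between the 2 values of Mir20a and between those of Mir30d, so it does not differ from them beyond their spread. Both values of Mir141 and of Mir98 lie above both of Mir145a.

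Mir143 and Mir145a are close neighbours, and Mir145b is not. In the GRCm38 annotation Mir143 spans 61649196 to 61649258 of chromosome 18 and Mir145a spans 61647825 to 61647894, both on the minus strand, with Mir143 transcribed first and 1301 bases between them. The lincRNA gene Carmn, a long non-coding RNA gene of cardiac and smooth muscle, ends on the same strand 366 bases before Mir143, and 0 other annotated genes of that strand contain Mir143 or Mir145a. Another lincRNA gene, Bvht, known from the heart lineage, lies on the opposite strand and comes within 352 bases of Mir145a without overlap. Mir145b lies from 69022199 to 69022273 on the minus strand of the same chromosome, 7.37 Mb away, inside no annotated gene.

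**Figure D2:**
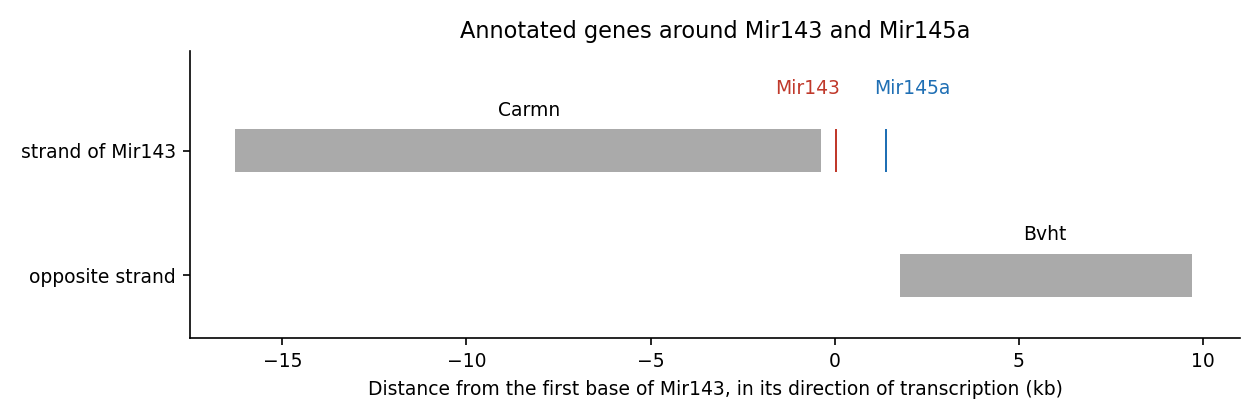
Annotated genes around Mir143 and Mir145a by strand, with distance in kb from the first base of Mir143 along its direction of transcription. Carmn ends 366 bases before Mir143, Mir145a follows Mir143 after 1301 bases, and Bvht is on the other strand.

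The hairpin of Mir143 was short and stable. It has 63 bases in the annotation, against a median of 85 over the 314 genes that had at least 10 counts in each library, and 55.6% of its bases are G or C (median 50.0%). Its predicted folding energy was -0.59 kcal/mol per base, and 16 of those 314 hairpins had a lower, more stable value. Mir145a, with 70 bases, 48.6% G or C and -0.43 kcal/mol per base, was near the median of -0.43. Mir145b has 75 bases, 46.7% G or C and -0.33 kcal/mol per base.

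Shared sequence bears on the counts, since a read that maps to several places is lost. The longest run that Mir143 shares with any other annotated miRNA hairpin is 11 bases. Mir145a and Mir145b share a run of 17 with each other, and Mir143 shares at most 6 with either. Of the 314 detected genes, 72 share a run of 20 or more with another hairpin, and Mir143 and Mir145a are not among them. Matches of their sequences elsewhere in the genome were not searched. If all multi-mapped reads were added to the denominator, Mir143 would hold 11.4% of the sum in pup 1 and 9.51% in pup 2, and Mir145a 0.295% and 0.289%.

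All member counts were on the annotated strand. On the opposite strand Mir143, Mir145a and Mir145b had 0 reads in both pups, which for Mir143 allows up to 0.000476% of its count in pup 1 and 0.000440% in pup 2, and for Mir145a up to 0.0185% and 0.0145%. Opposite-strand reads occurred in 16 of the 314 detected genes in pup 1 and 20 in pup 2.

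Mir143 exceeded its neighbour Mir145a 38.8-fold in pup 1 (95% counting interval 38.2 to 39.4) and 32.9-fold in pup 2 (32.4 to 33.4). The mean log2 ratio was 5.16 ± 0.17 (SD, n = 2), so the counts of the genes differ by more than the spread between pups. A difference in how well the 2 sequences enter a library would recur in both pups. Neither this SD nor the test below covers it, and it was not measured. To read the ratio against other clusters, all miRNA genes that follow each other on 1 strand with starts at most 10 kb apart were paired. Of these, 88 pairs reached 10 counts for both members in both libraries. Within libraries, edgeR's quasi-likelihood test, blocked on the pup, called 83 of the 88 pairs (94.3%), and in 46 the member transcribed first was the higher (52.3%). Mir143 over Mir145a was 1 of them (adjusted p = 7.56e-14 by edgeR). The call itself is thus shared by nearly all pairs.

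By size, 15 of the 88 pairs had a larger ratio, either way round, than Mir143 with Mir145a, and the median pair was 6.10-fold apart. The 5 largest were Mir20a over Mir19b-1 (755-fold), Mir99a over Mirlet7c-1 (411-fold), Mir30e over Mir30c-1 (212-fold), Mir92-1 over Mir19b-1 (183-fold) and Mir20a over Mir19a (171-fold). In 4 of these 5 a member shares a run of 20 or more bases with another hairpin, Mir20a with Mir19a being the exception, and reads that map to several places went uncounted. Among the 57 pairs free of such runs, a subset chosen after seeing the data, 6 had a larger ratio than Mir143 with Mir145a. The median of the 57 was 4.47-fold. Genes such as Mir20a are in several pairs, so pairs are not independent of each other.

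**Figure D3:**
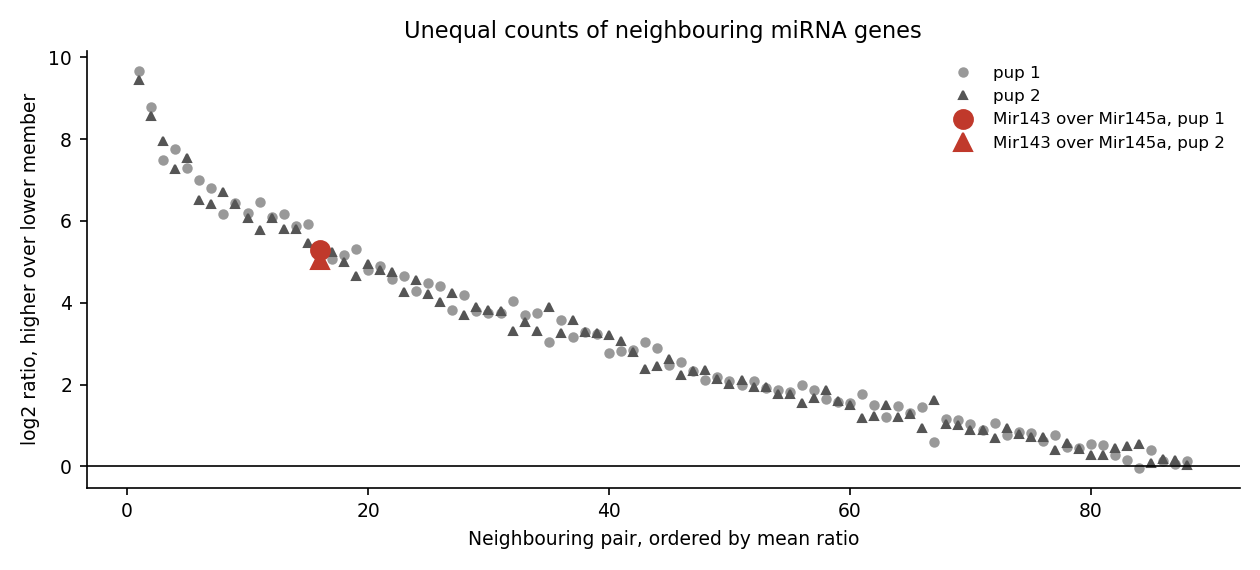
log2 ratio of the higher over the lower member in 88 neighbouring pairs of miRNA genes, ordered by the mean, in pup 1 (circles) and pup 2 (triangles). Mir143 over Mir145a, in red at 5.28 and 5.04, comes after 15 pairs.

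In size, the shift of this ratio between the pups was common among the pairs. In log2 units the ratio was 5.28 in pup 1 and 5.04 in pup 2, a shift of -0.24, and 39 of the 88 pairs shifted by more. Some of these 39 had a member with few counts, where counting noise alone moves a ratio further. The SD of Mir143 over Mir145a, 0.17, was close to the median SD of 0.15 over all pairs.

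Between the libraries Mir143 was lower in pup 2 and Mir145a differed little. After TMM scaling the log2 ratio of pup 2 over pup 1 was -0.23 for Mir143 (95% counting interval -0.24 to -0.23), or 1.18-fold higher in pup 1, and it passed the exact binomial test. For Mir145a it was 0.0040 (-0.03 to 0.03, adjusted p = 0.905, exact binomial test). These tests set reads against counting noise in 2 libraries, with no replicate of either animal. Of the 314 genes tested, 129 were called (41.1%), 62 of them lower (19.7%) and 67 higher (21.3%) in pup 2. A call is therefore common, and the size of the Mir143 difference was exceeded by 120 of the 314 genes. Mir145b had too few counts to be tested.

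Scaling shifted both genes together. Mir143 was lower in pup 2 under each of the 4 scalings, from -0.19 with upper-quartile scaling to -0.28 with total counts. Mir145a went from 0.05 (adjusted p = 0.00760, exact binomial) with upper-quartile scaling to -0.04 (adjusted p = 0.0271) with total counts, so it has no stable direction. The share of called genes that were higher in pup 2 was 51.9% with TMM, 41.7% with total counts and 64.6% with upper-quartile scaling.

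**Figure D4:**
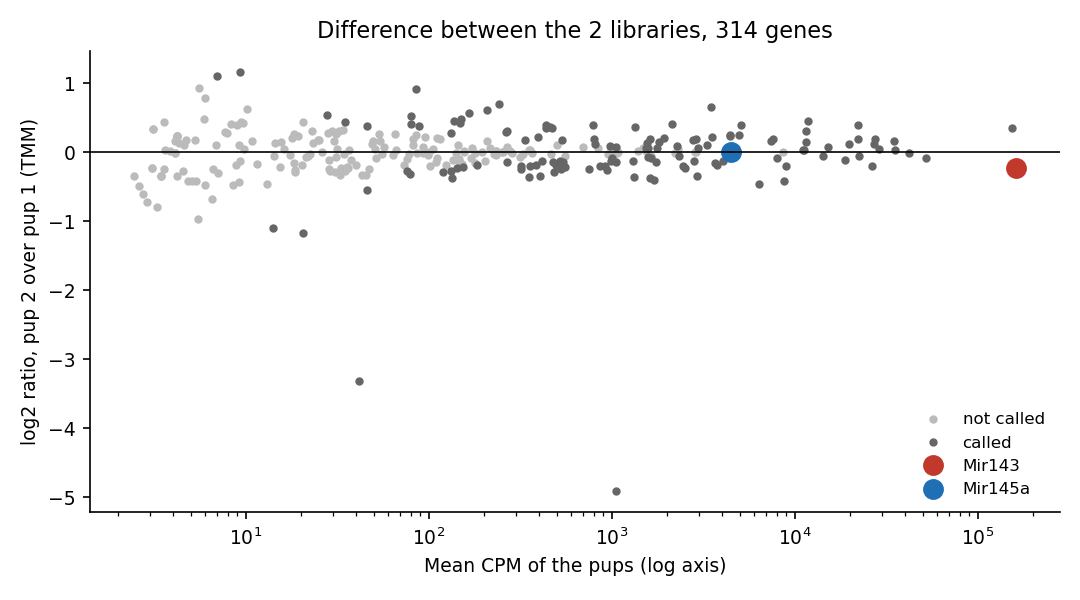
log2 ratio of pup 2 over pup 1 after TMM scaling against mean CPM on a log axis, for 314 genes, with genes called by the exact binomial test in dark grey. Mir143 is at -0.23 at the right edge and Mir145a at 0.0040 on the line of no difference.

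Among the 82 genes with a mean of at least 1000 CPM, 18 were further apart than Mir143 and 7 had a lower ratio. The median absolute log2 ratio of these 82 genes was 0.13. The nearest to Mir143 in ratio, over the 2 libraries, were Mir100 with -0.23, Mir27b with -0.20 and Mir23a with -0.20. Mir27b and Mir23a share runs of 20 bases with other hairpins. Nearest to Mir145a were Mir296 (0.0070), Mirlet7b (0.0074) and Mirlet7d (-0.0012). With 2 libraries a likeness of this kind rests on 1 ratio per gene.

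In bulk tissue, fewer cells of a type and less RNA per cell cannot be told apart. Here the difference in Mir143 came with a change in the counted share of the epithelium list. Shares of counts depend on each other, so a lower share of Mir143 by itself raises that of the list. The 12 miRNAs of the epithelium list took 31.0% of counts in pup 1 and 35.7% in pup 2, led by Mir215, Mir429 (35423 and 35179 CPM), Mir192 (28827 and 28960) and Mir200b (26060 and 28967). Most of the change in share lay in Mir215 (138090 CPM in pup 1 and 170988 in pup 2), while Mir429 and Mir192 hardly moved. Without Mir143 in the denominator the list held 39.7% ± 2.93 of counts, against 33.3% ± 3.32 with it (SD, n = 2). Of the 12, 2 share a run of 20 or more bases with another hairpin, so the list's counts are a lower limit. In pup 2, 11 of the 12 were called higher and Mir205 lower, where 21.3% of all 314 genes were called higher and 19.7% lower. With total-count scaling 8 were called higher, where 53 of all 314 genes were. With upper-quartile scaling 0 were called lower, where 46 of the 314 were. The median log2 ratio of the list was 0.19, against 0.0022 over all 314 genes. The ratios of the 11 called higher ran from 0.03 (Mir375) to 0.39 (Mir194-1), and at high counts a small ratio is called too. Several of the 12 are close neighbours, such as Mir194-1 with Mir215, so their calls are not independent. Mir126a, the endothelial gene, was called lower with -0.09. The part of epithelial or endothelial content in the Mir143 difference was not tested.

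The mesenchyme list, which does not hold Mir143, took 5.73% of counts in pup 1 and 6.08% in pup 2, led by Mir21a (33273 and 36127 CPM) and Mir22 (19369 and 20312), with Mir140 of cartilage and other connective tissue (2308 and 2313) and Mir214 (1868 and 1638) below. Of its 9 detected genes, Mir21a (0.16) and Mir22 (0.11) were called higher in pup 2, Mir214 (-0.15) was called lower, and 6 were not called, where 21.3% of all genes were called higher and 19.7% lower. With total-count scaling 2 were called lower, where 74 of all 314 genes were. Their median log2 ratio was 0.05, the value of Mir140, which was not called (adjusted p = 0.0683, exact binomial). Of the 10 genes on the mesenchyme list, 5 share a run of 20 or more bases with another hairpin, so its counts are a lower limit.

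A list was made of miRNAs known to act on the state of smooth muscle cells, and each one matched was below Mir143 as counted. These are levels in whole gut and not within smooth muscle. Of 25 on that list, 23 were matched by symbol, 18 were detected, and their sum was 8.30% of counts in pup 1 and 8.33% in pup 2, against the 17.7% and 14.6% of Mir143. Of the 23, 10 share a run of 20 or more bases with another hairpin, so the sum is a lower limit. Mir21a is also on the mesenchyme list, and Mir146 and Mir155 on the leukocyte list. Growth-promoting Mir21a led, 4.64-fold below Mir143 by mean, ahead of Mir10a (19861 and 17903 CPM), Mirlet7d (8710 and 8448) and Mir322 of the cell-cycle restraining miR-15 family (8308 and 7635). These 4 were above Mir145a in both pups.

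The miRNAs whose sequences are printed above ranged widely around Mir145a. Mir221 had 337 CPM in pup 1 and 322 in pup 2, and Mir222, with the same seed, had 79.9 and 83.5. Mir29a had 182 and 175 CPM and Mir29c 198 and 215, where Mir29c shares a run of 22 bases with a relative and its counts are a lower limit. Mir21a was above Mir145a in both pups and these 4 were below it.

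Between pups, of its 18 detected genes 3 were called higher in pup 2, Mir21a, Mir31 (0.16) and Mir96 (0.37). Another 3 were called lower, Mir10a (-0.11), Mir322 (-0.08) and Mir100 (-0.23), and 12 were not called. These shares are near the 21.3% higher and 19.7% lower of all genes. The median log2 ratio was 0.0063, against 0.0022 over all genes. With upper-quartile scaling 6 were called higher, where 84 of all 314 genes were.

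Striated muscle, the other muscle whose miRNAs could enter a dissected gut, left few counts. Its list took 0.0347% of counts in pup 1 and 0.0355% in pup 2, with Mir499 of slow and cardiac muscle at 237 and 232 CPM, Mir208b at 105 and 117, Mir206 of skeletal muscle at 5.05 and 5.55 and Mir208a at 0.280 and 0.427. Mir143 exceeded Mir499, the highest of them as counted, 688-fold by mean. Mir1a-1, Mir133a-1 and Mir133a-2, which also act in smooth muscle, had 0 counts in both pups. Each shares a run of 28 to 31 bases with another hairpin, so 0 counts is no measure of their level. Of 9 striated muscle genes listed, 8 were matched by symbol. Among those 8, 4 share a run of 20 or more bases, so the list's share is a lower limit.

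Lists of blood and nerve took smaller counted shares than Mir143. Of 6 genes on the leukocyte list, 5 were matched by symbol and Mir142 was not, so the share of that list is without it. The leukocyte list took 0.138% ± 0.0175 of counts (SD, n = 2), led by Mir342 with 693 CPM in pup 1 and 883 in pup 2, ahead of Mir223 of myeloid cells, Mir146 and Mir150. The erythroid list took 0.0124% ± 0.00329, led by Mir451a with 60.3 and 110 CPM, ahead of Mir144 and Mir486. The neural list took 0.130% ± 0.000327, led by Mir137 with 1071 and 1034 CPM, ahead of Mir138-1, Mir138-2 and Mir128-1. Of 10 neural genes used here, 9 share a run of 20 or more bases with another hairpin, and Mir9-2, Mir124a-1, Mir124a-2 and Mir124a-3 among them had 0 counts, so this share is a lower limit and no measure of nerve. The epithelium list took 33.3% ± 3.32 and the endothelium list, here Mir126a alone, 5.22% ± 0.342. The smooth muscle list took 16.6% ± 2.19, and without Mir143 in numerator and denominator it would hold 0.536% ± 0.0241. The smooth muscle list is the 3 genes themselves, so their counts are no test of the smooth muscle label. Mir143 and Mir145a were both well above the level of 3 counts, while Mir145b adds nothing measurable.

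**Figure D5:**
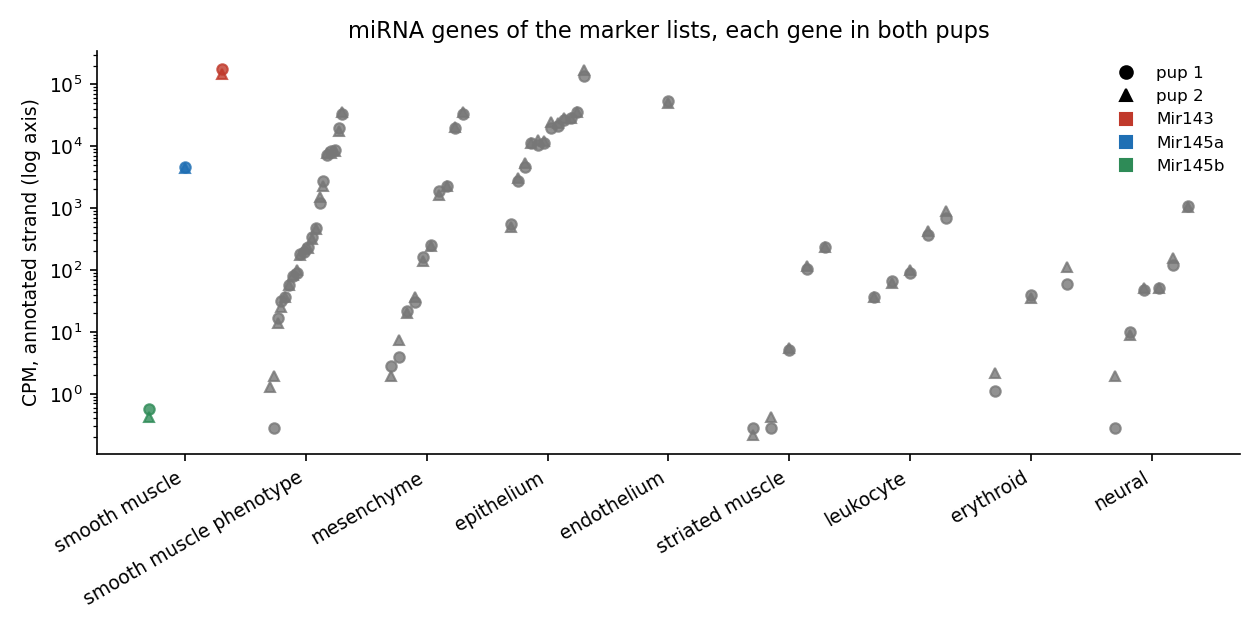
CPM on a log axis of each miRNA gene with counts in 9 marker lists, in pup 1 (circles) and pup 2 (triangles), with the 3 genes of the smooth muscle list in colour. Mir143 lies with Mir215 of the epithelium list at the top, Mir145a amid the upper genes of several lists and Mir145b at the bottom.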

How the data were processed

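MicroRNA sequencing gave 1 library for each of 2 newborn intestines, grouped and numbered by their labels. The authors deposited raw counts of reads for each miRNA gene on mm10 with GENCODE M4, per the text that came with them. No aligner or counter is given in the sources used here. Of 3 count columns, the one whose sums mark the annotated strand was used, and 4 totals of reads in no gene were left out. GENCODE M21 gave symbols to 1894 of 1973 genes. The other 79 held 0 counts. The identifiers of Mir143 and Mir145a have other version numbers there, so their bounds in M4 may differ.

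CPM used counts on the annotated strand. Detected means at least 10 counts in each library. Libraries were compared by a 2-sided exact binomial test at the TMM scale ratio (edgeR 4.0.16), and neighbouring pairs by edgeR's quasi-likelihood test blocked on the pup, which leaves 1 residual degree of freedom per pair. Both were adjusted by Benjamini-Hochberg over all genes or pairs at 0.05, and tested on simulated data. Folding used RNAfold 2.7.2. DESeq2 1.42.0 and limma 3.58.1 were alternatives, with other scalings, count minimums, denominators, pair distances and strand handling.

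Members, lists and tests were chosen with earlier results of these data known. Genes named are the 3 members, the 2 genes next in rank on each side of Mir143 and Mir145a, the 3 nearest in ratio to each, up to 4 leading members of each list and those at 0, and the 5 most unequal pairs. Other genes were chosen after their values were seen: Mir221, Mir222, Mir29a, Mir29c, Mir31, Mir96, Mir205 and Mir155.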

Additional observations from a re-analysis of the deposited data

How the results depend on the processing

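With all reads as the denominator, the levels were 90135 CPM for Mir143, 2512 for Mir145a and 0.276 for Mir145b. With multi-mapped reads added to the denominator, an alternative chosen after seeing the data, they were 104794, 2921 and 0.321 CPM. Without Mir143 in the denominator Mir145a had 5355 CPM and Mir145b 0.590, and with strand ignored Mir145a had 4338. With each pup left out in turn, Mir143 ranged from 145700 to 176506 CPM, Mir145a from 4429 to 4550, Mir145b from 0.427 to 0.561 and the log2 ratio of Mir143 over Mir145a from 5.04 to 5.28. That ratio was 5.16 to 5.17 and was called under all 7 alternative fits, with adjusted p from 2.56e-207 (DESeq2) to 1.76e-05 (edgeR, at least 100 counts). With no replicate block it was 5.17 (edgeR adjusted p = 1.32e-10). So the p depends on the fit and on the pairs that share a spread. Pairs called numbered 53 of 59 with at least 100 counts, since fewer were tested. Between pups, Mir145a had a log2 ratio of -0.039 with total counts (adjusted p = 0.0271, exact binomial), -0.0065 with any gene of at least 1 count (adjusted p = 1.00) and 0.046 with upper-quartile scaling (adjusted p = 0.00760). Its ratio follows the scale. At least 1.5-fold apart were 10 genes, Mir143 not among them. Among the 3 genes, depth limits the value of Mir145b.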
